A study of Homo sapiens with 16 samples.

Results

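AsPC-1 cells exposed to ICG-001 for 6 hours were compared with AsPC-1 cells exposed to the vehicle, DMSO, for the same 6 hours. The groups were taken from the titles of the samples, 3 arrays in each, and these 6 arrays are part of 16 in the series. AsPC-1 is an established human line grown from pancreatic ductal adenocarcinoma. Cells in serum-containing RPMI medium received ICG-001 at 10 µM or a matched volume of DMSO, and total RNA was hybridised to Affymetrix arrays. The other arrays of the series hold the same treatments at 24 hours and cells transfected with siRNA at 20 nM for 48 hours. The 24 hour arrays are used below only to show where the early response differed from the late one, and the siRNA arrays were not compared here. A single cell line and a single dose were studied. Arrays within a group are labelled as biological replicates, but nothing says whether they came from separate cultures, so the p-values measure the spread between these arrays, which may be technical.

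ICG-001 is a small molecule that binds the coactivator CBP (gene CREBBP) and was described as blocking the contact of CBP with β-catenin, the protein that carries Wnt signals to TCF factors in the nucleus. Wnt targets include feedback regulators of the pathway such as RNF43 and LGR5, as well as cell cycle genes. A separate pathway that recurs below is the integrated stress response: stress kinases phosphorylate the initiation factor eIF2α, general translation falls, and the transcription factor ATF4 is made and switches on genes for amino acid synthesis, amino acid uptake and tRNA charging.

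The authors' table holds linear intensities for each probe set on each array. It held 9554 probe sets, of which 6442 carried 1 gene symbol, and these gave 5250 genes after keeping the brightest probe set of each gene. The lowest coefficient of variation over the 16 arrays was 0.40, so the table is a selection of varying probe sets and each percentage below refers to that selection. No probe set named for CTNNB1, EP300, AXIN2, MYC or CCND1 alone was analysed here. Median intensities of the 6 arrays lay between 20.6 and 21.7, whereas mean intensities were 163.7 to 165.1 on the ICG-001 arrays and 131.7 to 136.5 on the DMSO arrays. The part of this gap in the results was tested only as far as the scalings below go. Of markers of ductal epithelium, KRT7, KRT19, CDH1, MUC1 and CFTR were in the table (5 of 15), with a summed intensity of 2725 to 2866 in DMSO and 2781 to 2861 in ICG-001. The sum hides opposing changes, by the test and the 2 scalings described below. KRT7 fell in both scalings, CDH1 rose only in the deposited scaling (log2 change 0.28), and MUC1 rose in the deposited scaling (0.15) and fell after quantile normalization (-0.20). KRT19 and CFTR did not pass. Of the other classes, 3 of 7 fibroblast, 2 of 5 endothelial, 1 of 6 leukocyte, 0 of 7 acinar and 0 of 6 islet markers were in the table. None of these passed the test described next, and their summed intensities were 110 to 166 in DMSO and 124 to 140 in ICG-001 for the fibroblast genes, 17.8 to 30.7 and 9.87 to 11.01 for the endothelial genes, and 20.0 to 31.7 and 12.98 to 29.41 for the leukocyte gene. The endothelial sums did not overlap, but both genes were dim, with means below the array medians: PECAM1 10.0 in DMSO and 4.06 in ICG-001, KDR 14.7 and 6.25. The part of these sums in the results was not tested. In such bulk RNA, fewer cells of a kind and less RNA per cell cannot be told apart.

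Of the 5250 genes, 748 (14.2%) changed at 6 hours at an adjusted p under 0.05 by limma with Benjamini-Hochberg adjustment, 467 up (8.9%) and 281 down (5.35%). Changes are given as log2 of intensity plus 16, ICG-001 minus DMSO, with the standard error (SE) of the fit. That added number makes changes of dim genes look smaller than they are. At least a 2-fold change on that scale was seen for 120 rises and 28 falls. The intensities of the 3 ICG-001 arrays and the 3 DMSO arrays did not overlap for 744 of the 748, against 1383 of all 5250 genes (26.3%). Calls depended on level: of the 1313 dimmest genes 4 rose and 5 fell, and of the 525 brightest 255 rose and 95 fell. Each list count below is to be read beside the shares over all genes, and the lists were not matched for level.

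The share of rises depended on the scaling between arrays. In the deposited scaling 62.4% of the changed genes rose. After quantile normalization of the 6 arrays, 318 genes rose (6.06%) and 492 fell (9.37%), so that 39.3% of the changed genes rose. The same call in both scalings was made for 598 genes, 317 rises (6.04%) and 281 falls (5.35%). A rise in the deposited scaling became a fall after quantile normalization for 32 genes, all of them bright and all with changes under 0.41 in size in either scaling. The difference lay in the bright genes: over the 525 brightest the median change was 0.16 in the deposited scaling and -0.17 after quantile normalization, whereas over all genes it was 0.02 and -0.02. A value in parentheses after a log2 change is therefore the same change after quantile normalization, and direction is stated for a gene where both scalings call it the same way unless said otherwise.

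**Figure D1:**
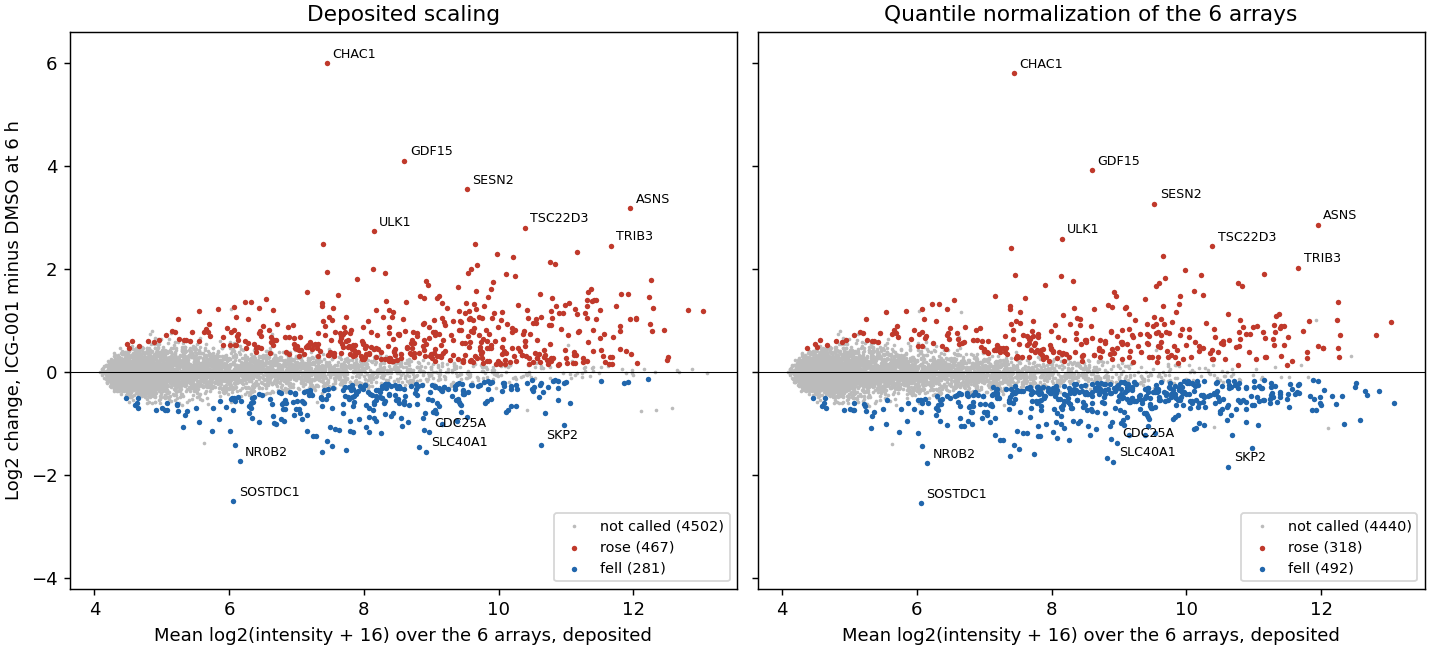
Log2 change at 6 hours (vertical axis, ICG-001 minus DMSO, log2 of intensity plus 16) against mean level (horizontal axis, same scale) for 5250 genes, 1 point each, in the deposited scaling (left) and after quantile normalization of the 6 arrays (right). Coloured points passed an adjusted p under 0.05: 467 rose and 281 fell on the left, 318 rose and 492 fell on the right, and the bright genes at the right edge of each panel lie lower after quantile normalization.

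The largest rise was that of CHAC1, an enzyme that breaks down glutathione and a known target of the ATF4 pathway (chromosome 15). Its intensities were 4.58, 8.31 and 4.78 on the DMSO arrays and 1355, 1370 and 1403 on the ICG-001 arrays. CHAC1 thus went from below the median intensity of the arrays to far above it, on all 3 ICG-001 arrays. The change was 5.99 ± 0.09 (5.81), adjusted p = 1.83e-12, and its size depended on the number added to the dim DMSO values: it was 7.68 with 1 added and 4.36 with 64 added. GDF15, a secreted stress cytokine, followed. It read 84.43, 75.04 and 73.69 in DMSO and 1612, 1582 and 1602 in ICG-001, a change of 4.11 ± 0.06 (3.92). GDF15 was read by a probe set of the kind Affymetrix marks as able to bind several similar transcripts (suffix x_at), so related transcripts may contribute. The same limit holds for other genes named below, among them SKP2, CXCL2, SLC1A4, TNFRSF10B, DUSP1 and HSP90B1, whose kept probe sets have that suffix. SESN2, the leucine sensor Sestrin 2 that restrains the growth kinase complex mTORC1, rose by 3.55 ± 0.05 (3.27) from 190, 206 and 201 to 2597, 2494 and 2449.

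Genes of amino acid supply were higher. Of 11 measured genes for amino acid synthesis and its stress-linked branches, 7 rose and 0 fell, with a median change of 1.92 against 0.02 over all 5250 genes. ASNS, the enzyme that makes asparagine, read 1280, 1319 and 1292 in DMSO and 11933, 11978 and 11960 in ICG-001. The groups were far apart, and the change was 3.19 ± 0.03 (2.86), adjusted p = 4.7e-14, or 9.12-fold. PSAT1, an enzyme of serine synthesis, rose from a mean of 1002 ± 56.0 to 5106 ± 169 (SD, n = 3), a change of 2.33 ± 0.05 (1.91). The other PSAT1 probe set gave 1.45. CTH, which makes cysteine from cystathionine, rose by 2.49 ± 0.05 (2.26). The folate enzyme MTHFD2 rose by 1.92 (1.78) and SHMT2, which interconverts serine and glycine in mitochondria, by 1.01 (0.82). The 4 members that did not pass the test, SHMT1, ALDH1L2, CBS and GLUL, lay between -0.08 and 0.05.

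Amino acid transporters and tRNA synthetases moved the same way. Of 5 measured transporters 3 rose: SLC1A4, which carries serine and alanine (1.81 ± 0.07, 1.70 after quantile normalization), SLC7A5, the large neutral amino acid carrier (1.25 ± 0.04, 0.73), and SLC7A11, the cystine carrier (1.03 ± 0.05, 0.76). SLC7A5 read 3320, 3291 and 3061 in DMSO and 7723, 7692 and 7622 in ICG-001, with no overlap. Of 6 measured tRNA synthetases 4 rose: AARS1 for alanine (1.28 ± 0.03, 0.80), CARS1 for cysteine (0.97 ± 0.07, 0.73), WARS1 for tryptophan (0.92 ± 0.04, 0.50) and SARS1 for serine (0.90 ± 0.03, 0.39). The other SARS1 probe set gave 2.15, and the highest change among the 3 SLC1A4 probe sets was 2.58. LARS1 at 0.05 and VARS1 at 0.16 did not pass the test. PCK2, the mitochondrial enzyme that makes phosphoenolpyruvate, rose by 2.15 ± 0.04 (1.72) from 808 ± 37.5 to 3637 ± 48.2 (SD, n = 3).

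The regulators of the integrated stress response were mixed, with 8 of 11 measured genes up and 2 down. TRIB3, a pseudokinase that feeds back on ATF4, read 1354, 1368 and 1378 in DMSO and 7735, 7521 and 7442 in ICG-001, a change of 2.46 ± 0.03 (2.03). A second TRIB3 probe set gave 0.73. JDP2, a basic leucine zipper repressor, rose by 2.30 ± 0.06 (1.99), DDIT3, which encodes the stress factor CHOP, by 1.76 ± 0.04 (1.48), and PPP1R15A, which directs the removal of phosphate from eIF2α, by 1.48 ± 0.10 (1.31). DDIT3 rose on all arrays, from 500, 494 and 525 to 1766, 1768 and 1729. ATF4 itself rose by 1.21 (0.73), ATF3 by 1.30 (1.22) and the C/EBP partner CEBPG by 1.06 (0.65). The members that fell were ATF5, a relative of ATF4 (-0.62, -0.68 after quantile normalization), and EIF2AK2, the kinase that senses double-stranded RNA (-0.56, -0.60). The EIF2AK2 call held in 1 of the 6 fits that left out 1 array, with adjusted p up to 0.158. EIF2AK3, the kinase PERK of the endoplasmic reticulum, was at 0.33 and did not pass the test.

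**Figure D2:**
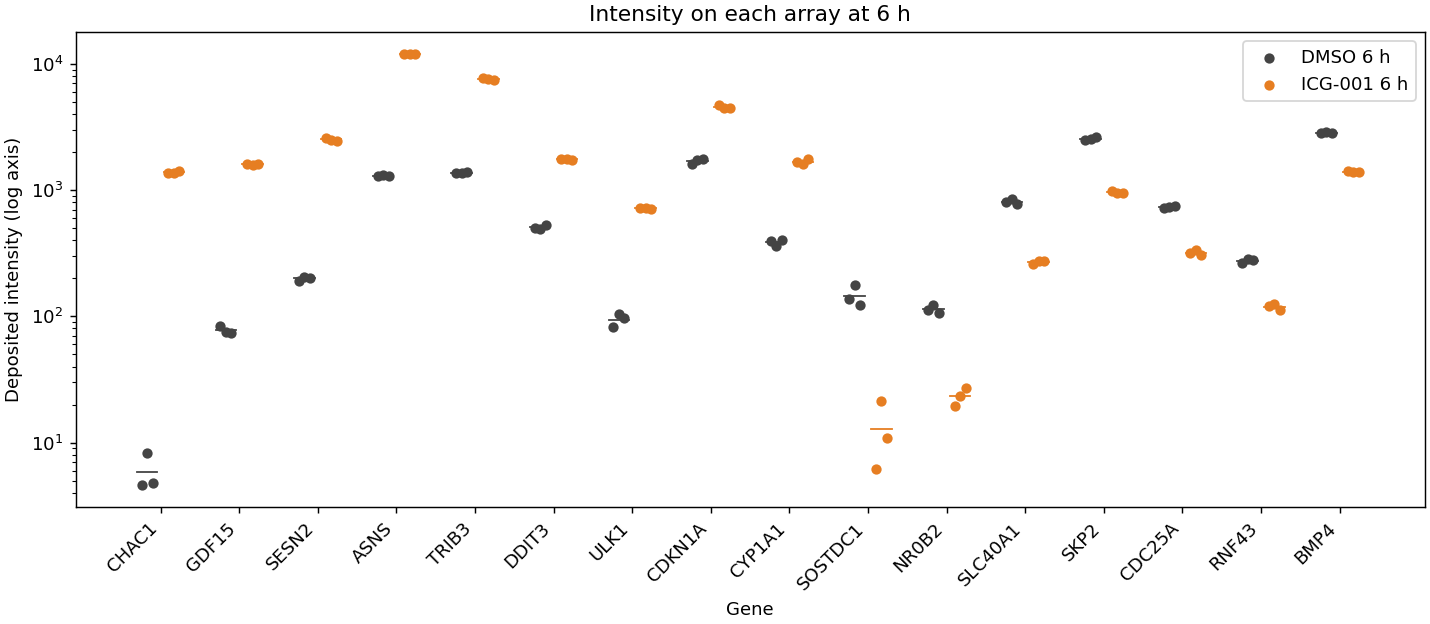
Deposited intensity (vertical axis, log scale) of named genes on each of the 6 arrays, DMSO and ICG-001 at 6 hours, with 1 point per array and a bar at the mean of 3. For the risen genes shown, such as CHAC1 (means of 5.89 and 1376) and ASNS (1297 and 11957), every ICG-001 array lies above every DMSO array, and for the fallen genes, such as SLC40A1 (808 and 268), every ICG-001 array lies below.

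The start regions of these genes were searched for the composite site that ATF4 and C/EBP factors are known to bind, in the form TGATGNAA on either strand within 250 bases before the RefSeq start (GRCh38.p14). A start region was available for 4057 of the 5250 genes. The letters were present for 4 of 20 risen genes of the stress response and tRNA synthetase lists (20.0%), for 116 of all 4057 genes (2.86%) and for 10 of 246 genes that rose in both scalings (4.07%). The 4 matches are shown with their flanks because they include ASNS and CHAC1, and capitals mark the match, which reads TTGCATCA where it lies on the other strand. The windows are AARS1 at chr16:70289636-70289743 (minus strand), ASNS at chr7:97872419-97872526 (minus strand), ATF3 at chr1:212565166-212565273 (plus strand) and CHAC1 at chr15:40953221-40953319 (plus strand). Each is printed 5′ to 3′ on the strand of its gene.
AARS1: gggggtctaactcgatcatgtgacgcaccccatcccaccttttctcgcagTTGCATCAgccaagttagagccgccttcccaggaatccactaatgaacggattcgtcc
ASNS: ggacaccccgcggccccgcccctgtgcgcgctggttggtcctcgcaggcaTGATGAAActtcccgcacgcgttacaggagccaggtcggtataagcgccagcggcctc
ATF3: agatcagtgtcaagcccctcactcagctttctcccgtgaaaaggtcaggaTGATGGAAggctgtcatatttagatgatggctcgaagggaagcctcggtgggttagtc
CHAC1: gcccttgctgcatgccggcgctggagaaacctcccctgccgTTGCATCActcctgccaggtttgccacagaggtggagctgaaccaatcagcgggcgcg
A match describes the letters and is not evidence of binding. The lists were made of genes of the stress response, and their members that did not rise were not compared. The share of sites among the risen members therefore cannot be tied to the drug by this count. In all, 9 motifs were searched on the same sets of genes, on both strands. In the 20 stress genes the CCAAT box (CCAAT) was present for 12 (60%) against 33.9% of all genes, the ATF/CREB site TGACGTCA for 1 against 1.58%, and the AhR element TNGCGTG for 1 against 5.20%. The NF-κB form GGGANTTCC was present for 1.63% of the genes that rose in both scalings and 4.21% of those that fell, against 2.05% of all. The late cell cycle element TTTGAA was present for 10.2% and 14.5%, against 12.3% of all.

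Of 15 measured genes on the list of mTORC1 brakes and autophagy 7 rose and 0 fell, with a median of 0.30, beside 8.9% and 5.35% of all genes. CASTOR2, a gene also linked to the restraint of mTORC1, was not on that list and fell (-1.16 ± 0.07, -1.28). ULK1, the kinase that starts autophagy, went from 81.9, 104 and 96.4 to 722, 725 and 709, a change of 2.74 ± 0.08 (2.59). DDIT4, the mTORC1 inhibitor REDD1, rose by 1.79 ± 0.03 (1.37) from a mean of 2615 to 9090, and MAP1LC3B, which coats autophagosomes, by 1.56 ± 0.04 (1.08). The lysosomal regulator TFEB rose by 0.73 (0.59), and the calls of GABARAPL1 (0.64) and WIPI1 (0.54) held in 2 each of the 6 fits that left out 1 array, with adjusted p up to 0.101. Of the endoplasmic reticulum genes, 3 of 5 rose: HERPUD1, a degradation factor (1.40 ± 0.04, 0.91), DNAJB9, a co-chaperone (1.31 ± 0.04, 0.87), and XBP1, a transcription factor of the unfolded protein response (1.05 ± 0.03, 0.48), whose other probe set gave 0.26 and did not pass the test. The chaperone HSP90B1 fell by 0.20 on the log2 scale, a call that held in 2 of the 6 fits that left out 1 array, with adjusted p up to 0.0746.

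**Figure D3:**
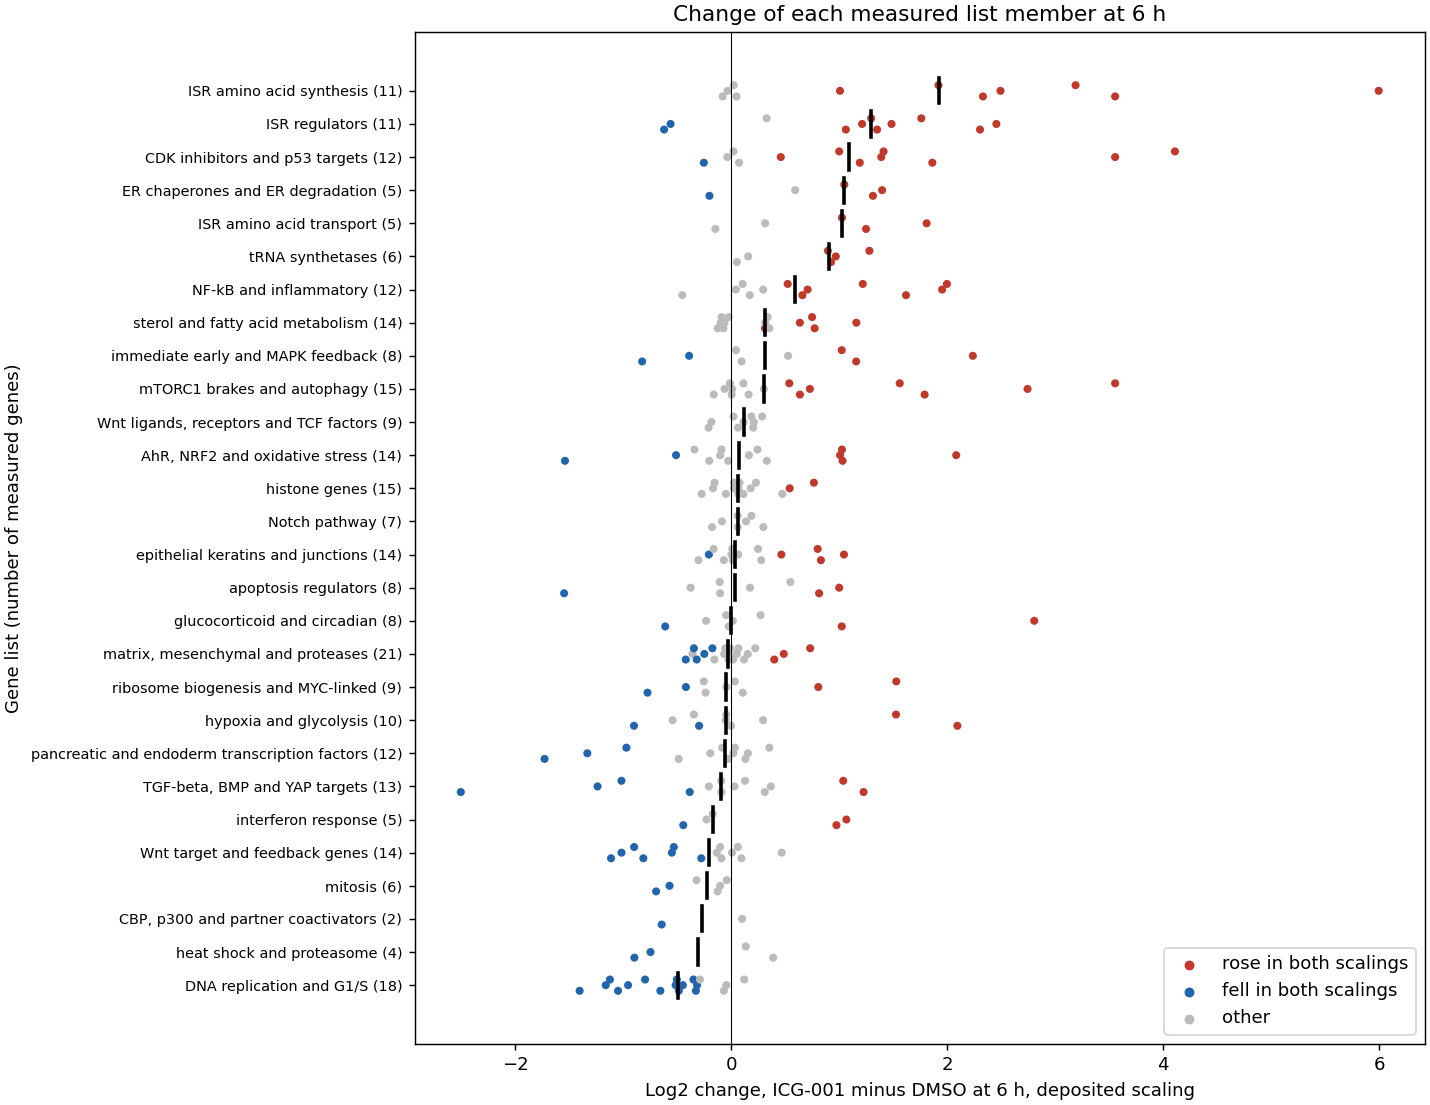
Log2 change at 6 hours (horizontal axis, log2 of intensity plus 16, ICG-001 minus DMSO) of the measured members of each gene list, 1 row per list and 1 point per gene, coloured where the gene rose or fell at an adjusted p under 0.05 in both scalings and grey otherwise, with a black mark at the median of the list. The list of amino acid synthesis has its median at 1.92 with 7 of 11 members up, and the list of DNA replication has its median at -0.49 with 14 of 18 members down.

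DNA replication genes fell: 14 of 18 measured genes of replication and the G1 to S step fell and 0 rose, with a median of -0.49 (15 fell after quantile normalization, median -0.67). SKP2, the ubiquitin ligase subunit that targets the CDK inhibitor p27, read 2498, 2545 and 2617 in DMSO and 984, 944 and 939 in ICG-001, a change of -1.40 ± 0.04 (-1.83), adjusted p = 2.04e-10. All 3 SKP2 probe sets were lower, from -1.67 to -0.83. CDC25A, the phosphatase that activates CDKs, was lower by a factor of 2.24 (-1.16 ± 0.06, -1.36 after quantile normalization), the checkpoint adaptor CLSPN changed by -1.12 ± 0.06 (-1.30) and the origin licensing subunit ORC1 by -1.05 ± 0.06 (-1.21). Smaller falls were seen for POLA2, a subunit of the primase complex (-0.95), CCNE2, cyclin E2 (-0.80 ± 0.04, -1.22), MCM6, a helicase subunit (-0.51), and GINS2, another part of the replicative helicase (-0.48 ± 0.04, -0.93). E2F1 and E2F2 at -0.04 and -0.29 did not pass the test in either scaling, nor did CCND2 at 0.12, and RRM1 passed it only after quantile normalization.

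The letters of a classical E2F site, TTTGGCGC on either strand within 250 bases before the start, were found for 2 of 11 fallen replication genes with a start region (18.2%), against 32 of all 4057 genes (0.789%). A second form, TTTCCCGC, was found for 1 of the 11 and for 65 of all 4057 (1.60%). These windows are CDC25A at chr3:48188418-48188511, MCM6 at chr2:135876538-135876645 and GINS2 at chr16:85688955-85689035, all on the minus strand of GRCh38.p14 by RefSeq, with the match in capitals. They are shown because they are the matches among the fallen replication genes, MCM6 holding a further match nearer its start.
CDC25A: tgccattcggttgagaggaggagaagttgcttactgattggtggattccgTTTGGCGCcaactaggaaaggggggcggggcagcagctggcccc
MCM6: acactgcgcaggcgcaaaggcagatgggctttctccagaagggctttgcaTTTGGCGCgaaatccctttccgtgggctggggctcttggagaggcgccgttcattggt
GINS2: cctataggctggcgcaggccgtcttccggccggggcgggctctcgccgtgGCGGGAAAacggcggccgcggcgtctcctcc
Both counts rest on very few genes, and replication genes that did not fall were not compared. CCAAT was present for 7 of the 11 (63.6%).

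Of 6 measured mitotic genes 2 fell in the deposited scaling, the checkpoint kinase BUB1 (-0.69 ± 0.09) and the chromosomal passenger subunit INCENP (-0.57 ± 0.10), beside 5.35% of all genes. After quantile normalization 5 of the 6 fell, beside 9.37% of all genes and 247 of the 525 brightest. The part of level in the higher count was not tested. BIRC5, which encodes survivin and is often used as a readout of ICG-001, read 2226, 2232 and 2222 in DMSO and 2006, 2200 and 2021 in ICG-001. Its arrays did not overlap, but the change of -0.10 ± 0.04 did not pass the test (adjusted p = 0.176), whereas after quantile normalization it was -0.56 and passed. BIRC5 was also read by an x_at probe set, of the kind that can bind similar transcripts.

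Inhibitors of the cell cycle and genes known as p53 targets rose in 8 of 12 measured cases, with 1 fall and a median of 1.10. CCNG2, an atypical cyclin that slows division, read 607, 635 and 620 in DMSO and 2393, 2248 and 2256 in ICG-001, a change of 1.86 ± 0.04 (1.49). All 4 CCNG2 probe sets rose, from 0.66 to 1.86, so the size depends on the probe set. CDKN1A, which encodes the CDK inhibitor p21, rose by 1.41 ± 0.04 (0.89) from 1605, 1718 and 1762 to 4702, 4473 and 4424. CDKN2B, the inhibitor p15, rose by 1.19 (0.94), BTG1 by 1.39 (0.86) and CDKN1C, the inhibitor p57, by 0.46 (0.38). MDM2 at 0.07 and TP53INP1 at 0.02, both widely used p53 targets, did not pass the test, and the p53-induced nuclease AEN fell (-0.25, -0.68 after quantile normalization). SESN2 is counted in this list, in the amino acid list and among the mTORC1 genes.

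Wnt targets and feedback regulators fell in part. Of 14 measured targets 7 fell and 0 rose, with a median of -0.20, beside 5.35% and 8.9% of all genes. After quantile normalization 9 fell, beside 9.37% of all genes. RNF43, the ubiquitin ligase that removes Frizzled receptors, read 266, 283 and 279 in DMSO and 120, 125 and 112 in ICG-001, a change of -1.11 ± 0.08 (-1.18). BMP4, a secreted growth factor, read 2808, 2897 and 2811 and then 1411, 1393 and 1384, a change of -1.02 ± 0.04 (-1.48). LGR5, the R-spondin receptor, changed by -0.90 ± 0.11 (-0.94) on its brighter probe set, while its other probe set gave -0.03, and the transcription factor SOX4 changed by -0.81 ± 0.08 (-0.95), with -0.35 on its other probe set. MMP7, LBH and FGF18 made up the rest of the falls at -0.28, -0.53 and -0.55, of which FGF18 kept its call in 3 of the 6 fits that left out 1 array (adjusted p up to 0.1), whereas NOTUM at 0.01, APCDD1 at 0.06 and TNFRSF19 at -0.09 did not pass the test. TIAM1, an activator of the GTPase RAC1, had the largest change among the members that did not pass, 0.47 (adjusted p = 0.053), and it was upward. Of 9 ligands, receptors and TCF factors 0 rose and 0 fell, their changes lying between -0.21 and 0.29. One of them, TCF7L2, fell after quantile normalization (-0.31). The TCF letters ATCAAAG were present before the start of 4 of 214 fallen genes (1.87%) and of 1.75% of all genes with a start region.

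CREBBP, the gene of the protein that ICG-001 binds, was dim. It read 21.3, 15.2 and 7.78 in DMSO and 1.65, 4.40 and 4.14 in ICG-001, a change of -0.64 ± 0.18 with adjusted p = 0.0376. The arrays did not overlap, yet the call held in only 1 of the 6 fits that left out 1 array (adjusted p up to 0.139), and all 6 values lie near or below the median intensity of the arrays.

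The largest falls were spread over several functions. SOSTDC1, which is secreted and antagonises BMP and Wnt ligands, read 136, 175 and 123 in DMSO and 6.17, 21.4 and 10.8 in ICG-001. The change of -2.50 ± 0.20 (-2.54) ran from -3.54 with 1 added to -1.44 with 64 added. NR0B2, the nuclear receptor SHP that restrains bile acid synthesis, changed by -1.73 ± 0.14 (-1.77) from 114 ± 8.29 to 23.4 ± 3.83 (SD, n = 3). DFFB, the nuclease that cuts DNA in apoptosis, changed by -1.55 ± 0.11 (-1.62). SLC40A1, the iron exporter ferroportin, read 808, 845 and 772 and then 259, 273 and 272, a change of -1.54 ± 0.06 (-1.74). The other falls among the 15 largest were NREP, FAM111B, SYNM, CAVIN2, FOXA1, KANK1, MSX1, GRAMD1B and CASTOR2, between -1.50 and -1.16, with -0.28 on the other probe set of CAVIN2. SKP2 and CDC25A complete the 15.

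Of 12 measured genes on a list of pancreas and endoderm genes, mostly transcription factors, 3 fell and 0 rose. Over all genes 5.35% fell and 8.9% rose, which is the background for each count of this paragraph in the deposited scaling. After quantile normalization 5 of the 12 fell, beside 9.37% of all genes. The further falls were TFF1 (-0.41) and TFF2 (-0.49), which encode secreted trefoil peptides and not transcription factors. FOXA1, a pioneer factor of endodermal tissue, read 253, 260 and 272 in DMSO and 101, 90.9 and 91.1 in ICG-001 (-1.33 ± 0.08, -1.41 after quantile normalization), while a second probe set gave -0.39. NR0B2 was another of the 3 falls. MYB changed by -0.97 ± 0.13 (-1.02), but its other probe set gave 0.26, so the fall of MYB rests on 1 of its probe sets. PDX1 at -0.08, GATA4 at 0.15 and NR5A2 at 0.03 did not pass the test. Among genes of TGF-β, BMP and YAP signals 4 of 13 fell, namely SOSTDC1, the BMP-responsive homeobox gene MSX1 (-1.24 ± 0.09, -1.31), BMP4 and TGFB2 (-0.38), and 2 rose, the activin subunit INHBE (1.23 ± 0.15, 1.20) and AJUBA, a LIM protein of cell junctions (1.04 ± 0.04, 0.52). Of 7 Notch pathway genes 0 passed the test.

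Several cytokines and growth factors rose. Of 12 measured NF-κB and inflammatory genes 7 rose and 0 fell, with a median of 0.59, beside 8.9% and 5.35% of all genes. CXCL2, a chemokine for neutrophils, read 356, 398 and 361 in DMSO and 1421, 1534 and 1647 in ICG-001, a change of 2.00 ± 0.06 (1.74). IL1A, interleukin 1 alpha, rose by 1.95 ± 0.10 (1.89), the chemokine CCL20 by 1.62 ± 0.05 (1.33) and CXCL3 by 1.22 ± 0.07 (1.11). Second probe sets of CXCL2 and IL1A gave 0.31 and 0.21, so the sizes depend on the probe set. HBEGF, a ligand of the EGF receptor, rose by 2.24 ± 0.06 (1.89) on its brighter probe set and by 2.32 on the other. VEGFA, the growth factor of blood vessels, rose by 2.09 ± 0.04 (1.68) from 881, 841 and 873 to 3772, 3771 and 3692. The lowest change among the 3 VEGFA probe sets was 1.32. Of 10 hypoxia and glycolysis genes only VEGFA and NDRG1, a stress-induced gene (1.53 ± 0.04, 1.00), rose in both scalings, and the carbonic anhydrase CA12 (-0.90 ± 0.09, and -0.14 on another of its probe sets) and the glycolytic enzyme TPI1 (-0.30 ± 0.05, -0.71) fell. These small counts stand beside 6.04% of all genes that rose and 5.35% that fell in both scalings.

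Genes of the xenobiotic and oxidative stress list moved both ways. CYP1A1, the P450 enzyme induced through the aryl hydrocarbon receptor (AhR), read 392.2, 358.9 and 401.5 in DMSO and 1670, 1607 and 1762 in ICG-001, a change of 2.08 ± 0.06 (1.84). The related CYP1B1 rose by 1.01 (0.73) and the AhR repressor AHRR by 1.03 ± 0.05 (0.62). Among genes known as NRF2 targets, SLC7A11 rose, HMOX1, which degrades heme, fell (-0.51, -0.70), and TXNRD1 at 0.33 did not pass the test. SRXN1 rose in the deposited scaling (0.24) and fell after quantile normalization (-0.29). In that list 5 of 14 genes rose and 2 fell in the deposited scaling, against 4 and 4 after quantile normalization.

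Sterol and fatty acid genes rose in 7 of 14 cases with 0 falls, but in 5 with 2 falls after quantile normalization. The cholesterol exporter ABCG1 rose by 1.16 ± 0.04 (0.75), the sterol sensor INSIG1 by 0.77 ± 0.04 (0.42) and SREBF1, the regulator of fatty acid synthesis, by 0.75 ± 0.07 (0.62). Of 8 glucocorticoid and circadian genes, TSC22D3, known as GILZ, stood out, with 490, 485 and 497 in DMSO and 3711, 3533 and 3344 in ICG-001. The change was 2.81 ± 0.05 (2.45), while the lowest change among its 3 probe sets was 0.06. The glucocorticoid-regulated KLF9 and PER2 at -0.05 and -0.02 did not pass the test, and CRISPLD2 rose by 0.27 in the deposited scaling but stood at -0.06 after quantile normalization. Of 9 ribosome biogenesis and MYC-linked genes 2 rose, 2 fell and 5 did not pass the test, with a median of -0.04. MXD1, an antagonist of MYC, rose by 1.53 ± 0.04 (1.12) and its relative MXI1 by 0.81 ± 0.04 (0.44). NOLC1, a nucleolar protein of ribosome assembly, fell (-0.77 ± 0.05, -1.04), as did POLR3G. NOP16, RRP12, CAD, MYCN and MYCL, which did not pass, lay between -0.25 and 0.11.

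Of 14 epithelial keratin and junction genes 5 rose and 1 fell, against 4 and 4 after quantile normalization. Over all genes 8.9% rose and 5.35% fell in the deposited scaling, and the lists of this paragraph are small. LAMB3, a laminin chain of the basement membrane, rose by 1.04 ± 0.04 (0.46), the tight junction genes CLDN7 and OCLN by 0.83 ± 0.05 (0.39) and 0.80 ± 0.07 (0.51), and KRT7 fell (-0.21, -0.60). Of 21 matrix and mesenchymal genes 3 rose, the proteases MMP1 (0.73 ± 0.05, 0.50), MMP14 (0.49 ± 0.08, 0.40) and MMP2 (0.40 ± 0.09, 0.30), and 5 fell, among them the collagen gene COL5A2 (-0.42 ± 0.07). The falls of VIM, TAGLN and THBS1 in this list held in 2 to 3 of the 6 fits that left out 1 array, with adjusted p up to 0.122. In the apoptosis list 3 of 8 rose: the death receptor TNFRSF10B (1.00 ± 0.06, 0.75), and the survival genes MCL1 (0.81 ± 0.06, 0.57) and BCL2 (0.55 ± 0.15, 0.47). The BCL2 call held in 2 of the 6 fits that left out 1 array, with adjusted p up to 0.13, and BCL2 was not called after quantile normalization. In the interferon list the factors IRF7 (1.07 ± 0.04, 0.63) and IRF9 (0.98 ± 0.05, 0.71) rose while the effector IFIT1 fell (-0.44 ± 0.07, -0.60).

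The early response was set against the 24 hour response, which has vehicle arrays of its own. At 24 hours 1184 genes (22.6%) had changed, in a fit of the 12 arrays of the drug experiment, whereas the 748 come from the 6 arrays at 6 hours. Of the 748 genes changed at 6 hours, 584 were changed in the same direction at 24 hours, which is 78.1% of the 6 hour genes and 49.3% of the 24 hour genes, 24 in the opposite direction and 140 not. With 12 arrays in the fit at both times, 703 genes changed at 6 hours, of which 566 changed the same way at 24 hours (80.5% of the 6 hour genes and 47.8% of the 24 hour genes). The difference between the responses passed its own test, the interaction of treatment and time over 12 arrays, for 504 genes (9.6%), 217 with the 24 hour change below the 6 hour change (4.13%) and 287 with it above (5.47%). With each array centred on its median the counts were 271 below and 178 above. Of the genes changed at 6 hours, 315 had such a difference. The 6 hour change was larger in size for 114 of them and the 24 hour change for 201, and 45 had opposite signs at the 2 times.

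Of the 22 risen genes of the stress response and tRNA synthetase lists, 8 had a called difference with the 6 hour change larger, 2 had one with the 24 hour change larger and 12 had none. SESN2 went from 3.55 to 2.51, MTHFD2 from 1.92 to 1.11 and DDIT3 from 1.76 to 1.15, whereas SLC7A5 went from 1.25 to 1.87 and WARS1 from 0.92 to 1.38. The vehicle level enters each change. For SLC7A5 the means at 6 and 24 hours were 7679 and 6594 in ICG-001 and 3224 and 1805 in DMSO, so its ICG-001 level did not grow. For WARS1 they were 2345 and 3176 in ICG-001 and 1229 and 1214 in DMSO. TRIB3, JDP2, PSAT1 and CHAC1 were among those without a called difference. These counts hold for the deposited scaling only, and members changed sides after quantile normalization of the 12 arrays. There the difference of ASNS lost its call (-0.15, adjusted p = 0.596 by limma). CHAC1 (-0.77, adjusted p = 0.0482) and AARS1 (-0.22, adjusted p = 0.0337) gained one by the same test. Outside these lists, GDF15 was 4.11 ± 0.06 higher at 6 hours and 2.64 ± 0.07 higher at 24 hours, a difference of -1.47 ± 0.11 (adjusted p = 8.19e-08 by limma). In intensity it was 77.7 ± 5.85 in DMSO and 1598 ± 15.1 in ICG-001 at 6 hours, and 148 ± 14.3 and 1003 ± 63.7 at 24 hours (SD, n = 3). CCNG2 went from 1.86 to 0.67, with means at 6 and 24 hours of 2299 and 1833 in ICG-001 and 621 and 1152 in DMSO. SMOX, which oxidises spermine, and FGF2, a growth factor, changed by 1.07 ± 0.09 and 0.73 ± 0.06 at 6 hours and by -0.06 ± 0.12 and -0.32 ± 0.07 at 24 hours. Among the early falls, LHX2, a LIM homeobox factor, changed by -0.95 ± 0.09 at 6 hours and 0.16 ± 0.08 at 24 hours, and HSPA6, an inducible heat shock protein, by -0.90 ± 0.15 and 0.17 ± 0.16.

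Other changes were larger at 24 hours, some of them already large at 6 hours. S100P, a calcium-binding protein of pancreatic cancers, was 1.61 ± 0.04 higher at 6 hours and 3.20 ± 0.05 at 24 hours, and CYP1A1 was 2.08 ± 0.06 and 3.76 ± 0.06 higher. The protease MMP1 went from 0.73 ± 0.05 to 2.62 ± 0.05. CCNE2 changed by -0.80 ± 0.04 at 6 hours and -2.32 ± 0.05 at 24 hours, GINS2 by -0.48 ± 0.04 and -1.88 ± 0.05, and MMP7 by -0.28 ± 0.04 and -2.02 ± 0.05. Of the 18 replication genes 13 had a called difference between the times, against 9.6% of all genes. The ICG-001 array of replicate 2 at 24 hours had a median of 28.6 where the other 24 hour arrays lay between 21.1 and 24.1, and without it 467 differences were called, 441 of the original 504 among them.

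**Figure D4:**
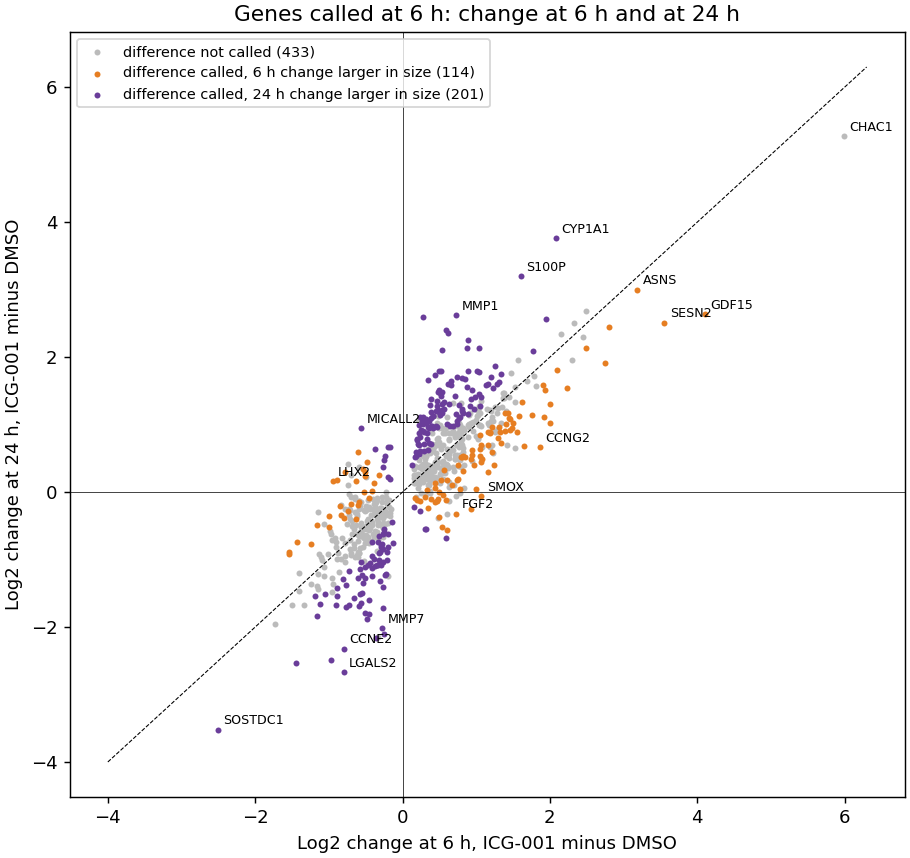
Log2 change at 24 hours (vertical axis) against log2 change at 6 hours (horizontal axis), ICG-001 minus DMSO, log2 of intensity plus 16, 1 point for each of the 748 genes changed at 6 hours, with a dashed line of equal change. Coloured points (315) had a called difference between the times, split by whether the 6 hour or the 24 hour change was larger in size: GDF15 lies below the line at 4.11 and 2.64, and CYP1A1 above it at 2.08 and 3.76.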

How the data were processed

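Total RNA was extracted with a column kit, labelled with biotin and hybridised to Affymetrix arrays, per the labels' protocols. The authors' deposited table gives the intensity of each probe set on each array, not in log units. How the authors summarised probes and scaled the arrays is not given in the sources used here, and depth does not apply to arrays, whose number limits the precision. Groups came from the sample titles.

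Probe sets were named through the platform annotation: of 9554, 6442 had 1 gene symbol, 252 several and 2860 none. Symbols of 6432 were matched to current ones by gene identifier. For each gene the probe set with the highest mean over the 6 arrays was kept. The deposited scaling was kept because the medians of the 6 arrays differed by 0.04 on the log2 scale, under a limit of 0.5. After adding 16 and taking log2, limma 3.58.1 in R 4.3.3 fitted the 6 arrays alone (lmFit, then eBayes with an intensity trend, 4 residual degrees of freedom), two-sided, with Benjamini-Hochberg adjustment over 5250 genes and a threshold of 0.05. The difference of the 24 hour and 6 hour responses was an interaction contrast over 12 arrays (8 residual degrees of freedom). The fit was tested on simulated data. Quantile normalization, median centring, other added numbers, a filter on dim genes, more arrays in the fit, a replicate block, an untrended prior, other uses of probe sets and leaving out each array were tried as alternatives.

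Named are the 15 largest rises and falls called in both scalings (arrays not overlapping, higher group above the 25th percentile of level), from each of 31 gene lists the called members that changed most (4 at most), a fixed set of pathway genes (CREBBP, BIRC5 and CDKN1A were measured), and 32 genes for the difference between the times. Further members are named to account for their list. The members and lists were chosen with earlier results of these data known. Gene start regions are those of RefSeq for GRCh38.p14, 250 bases before the start. The genome positions of probe sets were not used here.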

Additional observations from a re-analysis of the deposited data

Results flagged for a closer look

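For 32 genes that changed at 6 hours, the response at 24 hours differed from that at 6 hours by the interaction test (limma, adjusted p under 0.05), and all 32 were also called after quantile normalization of the 12 arrays and without the ICG-001 array of replicate 2 at 24 hours. Each value below is the 24 hour log2 change minus the 6 hour log2 change, so a vehicle level that moved between the times also enters it.

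Rises that were larger at 6 hours gave differences of -1.47 for GDF15, -1.20 for CCNG2, -1.18 for HEMGN, -1.17 for CDH22, -1.13 for SMOX, -1.05 for FGF2, -1.04 for CCR9 and -1.04 for SESN2. HEMGN, CDH22 and CCR9 were dim at 6 hours, with means of at most 57.5, 13.3 and 106 in ICG-001, and their 6 hour calls held in 5, 2 and 2 of the 6 fits that left out 1 array.

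Falls that were larger at 6 hours gave 1.21 for NBAT1, 1.11 for LHX2, 1.08 for FFAR4, 1.07 for HSPA6, 0.93 for KLHL22, 0.88 for SYT17, 0.81 for LINC02683 and 0.80 for HS3ST3B1. The 6 hour calls of NBAT1 and KLHL22 held in 1 and 0 of those 6 fits, and the other KLHL22 probe set gave 0.21 at 6 hours.

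Genes whose change was lower at 24 hours and larger in size there gave -1.87 for LGALS2, -1.85 for APLP1, -1.81 for TM4SF4, -1.75 for MMP7, -1.53 for CCNE2, -1.52 for MYB, -1.45 for WDR76 and -1.40 for GINS2. In the other direction the differences were 2.33 for CRISPLD2, 1.89 for MMP1, 1.82 for DHRS2, 1.73 for FNDC4, 1.68 for CYP1A1, 1.59 for S100P, 1.57 for ADGRG1 and 1.51 for MICALL2, which was -0.56 at 6 hours and 0.95 at 24 hours. The 6 hour calls of APLP1, WDR76 and MICALL2 held in 3, 2 and 5 of the 6 fits.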

How the results depend on the processing

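Of 133 named genes, 109 kept direction and side of the threshold under every alternative run, 23 lost the call under at least 1, and BIRC5, not called otherwise, was called after quantile normalization over 6 arrays (-0.56) and 16 arrays (-0.52). CRISPLD2, among the 23, also changed sign, to -0.056 after quantile normalization over 6 arrays and -0.058 over 16 arrays. The count of falls at 6 hours, 281, was 492 after quantile normalization over 6 arrays, 491 over 16 arrays and 181 when the prior spread had no trend with intensity. The cause was not tested. The count of differences between the times above 0, 287, was 178 with each array centred on its median. The cause was not tested. Leaving out each of the 6 arrays gave 610 to 683 genes called at 6 hours, 393 to 424 rises and 217 to 263 falls, and 554 genes were called in all 6 of these fits. Same-numbered arrays had correlations of deviations of 0.06, -0.04 and 0.04, and arrays of unlike number had -0.07 to 0.03. With 3 arrays a group these values cannot decide whether the replicate numbers pair the arrays. With the replicate block 696 genes were called at 6 hours (438 up, 258 down) and 485 differences (271 above 0, 214 below). CREBBP was not called under the block (adjusted p = 0.0661). With 3 arrays a group, changes of genes near background are the least certain.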

Other observations

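Gene classes outside the pathways above are given here with their counts at 6 hours, beside 8.9% of all genes that rose and 5.35% that fell. Among immediate early and MAPK feedback genes 3 of 8 rose, FOSL2 (1.16 ± 0.04), DUSP1 (1.02 ± 0.18, with 0.08 on its other probe set) and HBEGF, and 2 fell, SPRY1 (-0.82 ± 0.10) and DUSP5 (-0.39), while FOSB at 0.05 and EGR1 at 0.53 did not pass the test. KIF21B, a kinesin motor, rose by 2.50 ± 0.10 (2.41 after quantile normalization) from 55.2 ± 9.10 to 383 ± 13.2 in intensity (SD, n = 3). Of 4 heat shock and proteasome genes 2 fell, HSPA6 and HSPD1, and the HSPD1 call held in 1 of the 6 fits that left out 1 array. POLR3G fell (-0.42), a call that held in 4 of the 6 fits.

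Of 113 genes with SLC symbols 11 rose (9.73%) and 8 fell (7.08%), against 5 and 11 after quantile normalization, and SLC4A5, a bicarbonate carrier, rose by 1.19 ± 0.20 on a dim probe set while its other probe set gave -0.10. Of 140 ZNF genes 4 rose (2.86%) and 3 fell (2.14%), both below the shares over all genes. Few dim genes were called, and the part of level in these low shares was not tested. The ZNF genes with the largest changes were ZNF114 (1.36 ± 0.14), ZNF277 (0.61 ± 0.04), ZNF99 (-0.50) and ZNF502 (-0.50). The calls of ZNF99 and ZNF502 held in 1 and 0 of the 6 fits. Of 15 histone genes 3 rose, H2AC25 (0.77 ± 0.06), H2AC6 (0.54 ± 0.12) and H2BC21, whose call held in 1 of the 6 fits. H2BC21 was not called after quantile normalization (0.42). Of 535 long noncoding RNA genes 18 rose (3.36%) and 11 fell (2.06%), again below the shares over all genes and again not matched for level. After quantile normalization 10 rose and 15 fell. LINC00662 rose by 1.44 ± 0.05 on 1 of its 3 probe sets, EPB41L4A-AS1 by 1.13 ± 0.04, TMPO-AS1 changed by -1.15 ± 0.09 and LINC00299 by -1.14 ± 0.33, a call that held in 2 of the 6 fits. Antisense and sense transcripts are told apart here only by the probe set annotation.

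Of the 3112 probe sets without a single gene symbol, 106 rose and 44 fell at 6 hours (4.82%), with changes from -1.44 to 2.43.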
